A study of Mus musculus with 6 samples.

Results

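Replication-dependent histone genes encode the linker histone H1 and the core histones H2A, H2B, H3 and H4 that package newly made DNA, and 31 of them were followed in mouse embryonic stem cells with and without tamoxifen-induced deletion of Dicer, among 19938 genes tested. Members were genes with an older symbol of the form Hist1h to Hist4h that were read by a probe set listing a single gene symbol. The platform annotation carries current symbols, and 0 of them have the older form, so each probe set's Entrez ID was looked up in a RefSeq gene table, where 70 genes carry an older Hist symbol as a synonym. Of those 70 genes, 31 had a probe set of their own, 38 were read only by probe sets that list several symbols, and 1 had no probe set. The 31 members comprised 5 H1, 5 H2A, 11 H2B, 3 H3 and 7 H4 genes, each with 1 probe set, and 1 of them, H2bu1-ps, is annotated as a transcribed pseudogene. A further 27 histone probe sets listed several symbols and were left out of the membership.

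Cells of both groups carried the Dicer Fx/Fx alleles, in which Dicer, the ribonuclease that cuts precursor hairpins into mature microRNAs, can be deleted by adding tamoxifen. The tamoxifen group held 3 arrays of cells that received tamoxifen for 3 days and were collected 2 days later, on day 5. The untreated group held 3 arrays of the same Dicer Fx/Fx cells without deletion. The recombinase on which tamoxifen acts, the number of clones and a collection day for untreated cells are not given in the sources used here. Wild-type E14 cells given tamoxifen, which the protocol mentions, were not analysed here, so tamoxifen and Dicer deletion cannot be told apart. Total RNA was amplified and labelled with a whole-transcript kit and read on Affymetrix arrays, and values are log2 signals after robust multi-array averaging (RMA). Whether the replicates were cultured separately is not stated, so the p-values cover only the variation among these 6 arrays, some or all of which may be technical. Dicer1 itself fell to 27.7% of the untreated signal (log2 change -1.85 ± 0.07, SE; limma adjusted p = 3.61e-05), and array medians lay between 7.19 and 7.26.

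Replication-dependent histone genes lie in clusters, mostly lack introns and are transcribed as DNA is copied. Their messenger RNAs are the main animal mRNAs without a poly(A) tail: they end in a stem-loop that is bound by Slbp and cut with the help of the U7 small nuclear ribonucleoprotein, and they are degraded when DNA synthesis stops. Embryonic stem cells spend much of their short cell cycle in S phase and express these genes strongly. Core histones form the spool of the nucleosome, and H1 binds the DNA that enters and leaves it. H1 has several subtypes encoded by different genes, of which H1f1, H1f2, H1f3, H1f4 and H1f5 are the somatic replication-dependent ones and H1f6 (H1t) is made in spermatocytes.

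H1 was the class with the only member called in the main test, so the DNA before the start of each of the 5 H1 genes is shown first. Sequences are the 250 bases before the annotated start, from RefSeq, build GRCm38.p6, 5′ to 3′ on the strand of the gene. Capitals mark exact matches on either strand to AAACACA (the H1 box, an element described in H1 promoters), CCAAT (the box bound by NF-Y) and TATAAA (the TATA box).
H1f2 (chr13:23738557-23738806, plus strand): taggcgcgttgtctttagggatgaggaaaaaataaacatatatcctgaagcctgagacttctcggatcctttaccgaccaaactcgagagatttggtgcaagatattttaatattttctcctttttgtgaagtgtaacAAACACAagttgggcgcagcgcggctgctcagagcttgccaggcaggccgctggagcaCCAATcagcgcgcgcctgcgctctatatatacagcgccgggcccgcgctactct
H1f1 (chr13:23763418-23763667, plus strand): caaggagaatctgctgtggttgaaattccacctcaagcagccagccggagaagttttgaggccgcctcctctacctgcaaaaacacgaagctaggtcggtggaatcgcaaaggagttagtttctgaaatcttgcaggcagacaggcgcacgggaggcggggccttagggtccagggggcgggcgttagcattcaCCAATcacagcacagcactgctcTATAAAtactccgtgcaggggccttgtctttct
H1f5 (chr13:21780626-21780875, minus strand): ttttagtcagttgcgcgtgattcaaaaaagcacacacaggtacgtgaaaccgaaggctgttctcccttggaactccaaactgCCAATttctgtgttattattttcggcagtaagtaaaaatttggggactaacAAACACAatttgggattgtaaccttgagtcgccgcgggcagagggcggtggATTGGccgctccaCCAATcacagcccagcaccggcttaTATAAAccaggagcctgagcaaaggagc
H1f3 (chr13:23554782-23555031, plus strand): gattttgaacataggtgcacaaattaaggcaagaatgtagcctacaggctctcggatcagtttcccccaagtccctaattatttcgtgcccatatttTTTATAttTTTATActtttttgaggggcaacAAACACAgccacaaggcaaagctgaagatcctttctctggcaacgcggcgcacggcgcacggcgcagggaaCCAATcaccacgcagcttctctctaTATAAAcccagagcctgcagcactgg
H1f6 (chr13:23695561-23695810, plus strand): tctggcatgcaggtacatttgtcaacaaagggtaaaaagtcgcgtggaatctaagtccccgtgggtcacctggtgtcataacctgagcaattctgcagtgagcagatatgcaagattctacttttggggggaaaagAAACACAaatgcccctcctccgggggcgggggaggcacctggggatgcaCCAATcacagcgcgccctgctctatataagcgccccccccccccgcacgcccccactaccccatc

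All 5 H1 sequences held CCAAT, which 33.8% of 32536 promoter windows of the same length in the RefSeq table hold. AAACACA was found in 4 of the 5, in all but H1f1, against 6.25% of all windows. In H1f2 it began at position -112, with -1 as the last base before the start. Among members with a sequence it was also found in 2 of 5 H2A and 2 of 8 H2B genes, and in 0 of 2 H3 and 0 of 6 H4 genes. TATAAA was found in 3 of the 5, against 12.3% of all windows. These matches describe the letters of the windows and are no evidence of binding.

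After tamoxifen a single histone gene passed the main test, which does not pair arrays: the linker histone gene H1f2 (older symbol Hist1h1c). With the replicate number as a block H1f2 passed as well, and 3 members were called lower. These were H1f6, H2ac8 and H2ac4 (limma adjusted p = 0.0161, 0.027 and 0.0235). In that fit 7.87% of all genes were higher and 9.54% lower. H1f2 had log2 signals of 10.05, 10.07 and 10.03 in tamoxifen-treated cells, against 9.47, 9.58 and 9.61 in untreated cells. All 3 tamoxifen arrays lay above all 3 untreated arrays, and the gap between the groups was larger than the spread within either. The rise was 0.49 ± 0.06 on the log2 scale (SE), or 1.41-fold with a 95% confidence interval from 1.28 to 1.55, with a limma adjusted p of 0.00499 (Benjamini-Hochberg over 19938 genes). These are whole cultures, in which more cells of a kind and more RNA per cell cannot be told apart. The change was 0.58, 0.49 and 0.42 in the same-numbered pairs 1, 2 and 3. H1f2 was called in all 6 fits that dropped an array, with changes from 0.45 to 0.52. By exact permutation of the arrays (two-sided) p was 0.1, and 6 arrays in groups of 3 can give none smaller.

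Among all 19938 genes 3.79% were called higher and 3.99% lower, and among the 31 histone genes 1 was called higher and 0 lower by limma. At an unadjusted p under 0.05, 3 histone genes were higher and 2 lower, where all genes gave 11.5% and 13.1%. The groups did not overlap for 3 members on the higher side and 2 on the lower side, beside 14.5% and 14.8% of all genes. The median change of the 31 members was -0.02, and that of all genes 0.01. Changes smaller than 0.1 in either direction were seen in 20 of the 31 members and in 51.4% of all genes. The median standard error was 0.08 both for the members and for all genes.

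**Figure D1:**
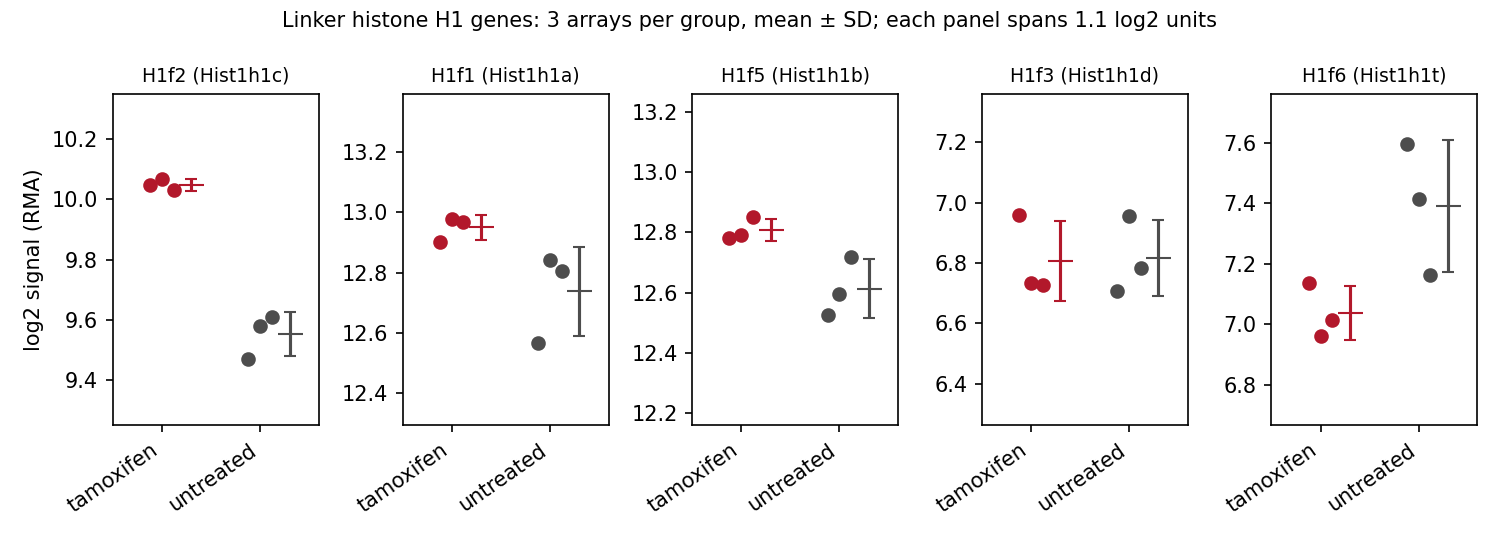
Log2 RMA signal (vertical axis) of the 5 H1 genes in the 3 tamoxifen arrays (red, left) and the 3 untreated arrays (grey, right), with bars for the mean ± SD. After tamoxifen the mean is higher by 0.49 in H1f2, 0.21 in H1f1 and 0.19 in H1f5, and lower by 0.35 in H1f6. The arrays of H1f3 are interleaved. Levels of different genes come from different probes and are not comparable.

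Beside H1f2, the somatic subtypes H1f1 and H1f5 (Hist1h1a and Hist1h1b) had small positive changes that did not pass the test. H1f1 had signals of 12.90, 12.98 and 12.97 in tamoxifen-treated cells, against 12.57, 12.84 and 12.80 in untreated cells. The groups did not overlap, and untreated replicate 1 lay well below the other untreated arrays. The change of H1f1 was 0.21 ± 0.08 (95% confidence interval 0.03 to 0.40, limma adjusted p = 0.151), and it was 0.13 without untreated replicate 1. H1f5 had signals of 12.78, 12.79 and 12.85 in tamoxifen-treated cells, against 12.53, 12.60 and 12.72 in untreated cells. Its change was 0.19 ± 0.07 (0.04 to 0.35, adjusted p = 0.122), with no overlap of the groups. With the replicate number as a block the adjusted p was 0.0546 for H1f1 and 0.0552 for H1f5.

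H1f3 (Hist1h1d), another somatic subtype, had signals of 6.96, 6.73 and 6.73 in tamoxifen-treated cells, against 6.71, 6.96 and 6.78 in untreated cells. The arrays of the groups were interleaved, and the change was -0.01 ± 0.09 (95% confidence interval -0.21 to 0.20, adjusted p = 0.971). H1f3 was the dimmest of the H1 members, at the 36.3 percentile of signal, and whether its transcript was present was not tested. H1f4, the remaining somatic subtype, had no probe set of its own. A probe set that lists 1 H1 and 1 H2B symbol had signals of 8.01, 8.04 and 8.06 in tamoxifen-treated cells and 7.81, 7.98 and 7.86 in untreated cells, a change of 0.15 ± 0.06 with an adjusted p of 0.194 over 23410 probe sets with a listed gene.

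The testis subtype H1f6 (Hist1h1t) lay on the other side of 0. Its signals were 7.14, 6.96 and 7.01 in tamoxifen-treated cells, against 7.60, 7.41 and 7.16 in untreated cells. The tamoxifen arrays were all lower, but the highest of them came close to untreated replicate 3. The change was -0.35 ± 0.11 (95% confidence interval -0.60 to -0.11, adjusted p = 0.0812). With the replicate number as a block, which the arrays follow, the adjusted p was 0.0161, and without untreated replicate 3 it was 0.0329. The signal lay at the 42.3 percentile among all genes, and RMA carries no detection call, so whether the transcript was present was not tested.

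**Figure D2:**
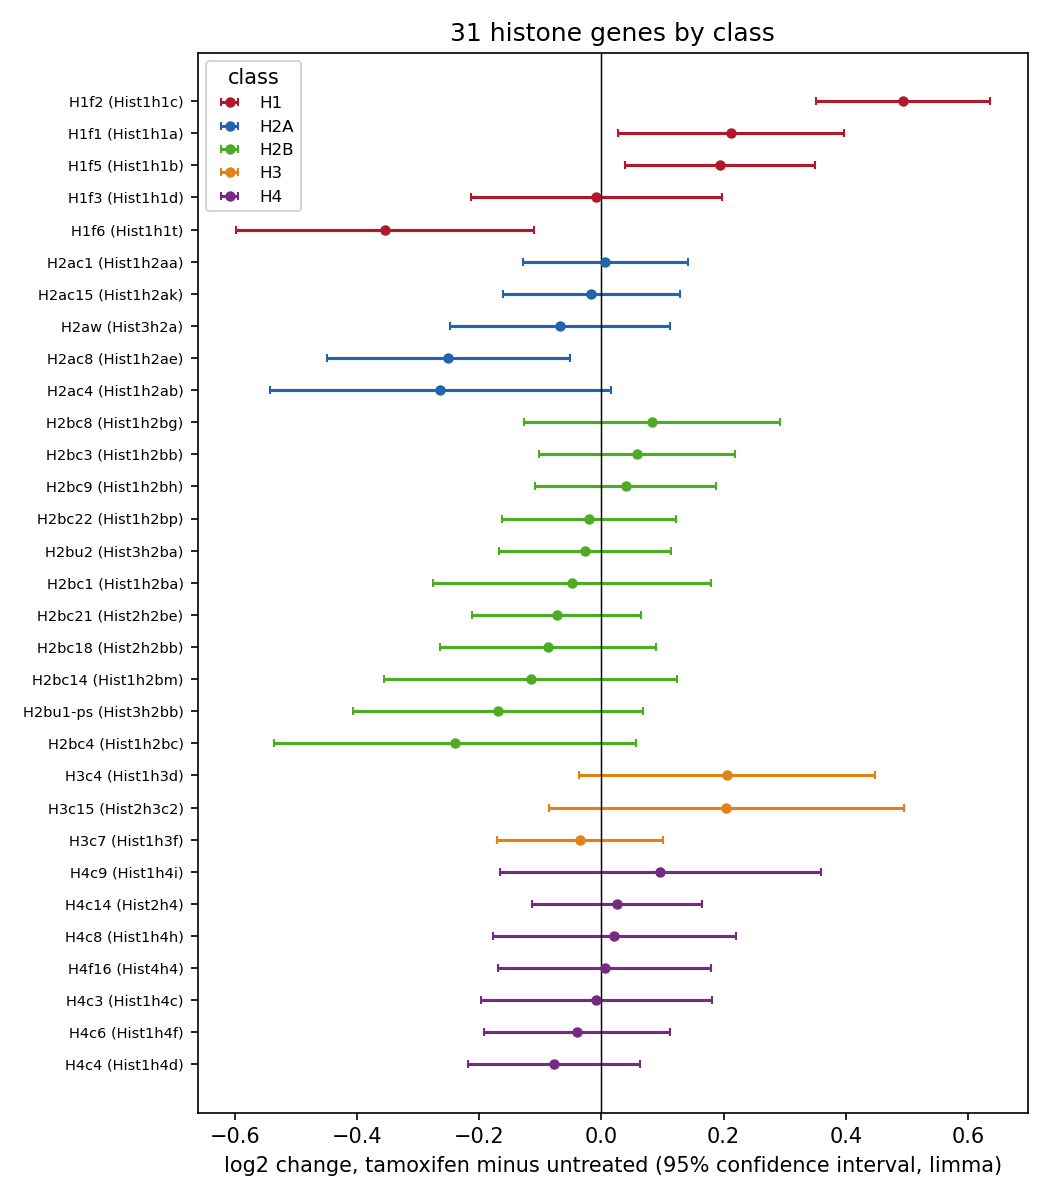
Change in log2 signal, tamoxifen minus untreated (horizontal axis), with limma's 95% confidence interval for each of the 31 histone genes, grouped and coloured by class. H1f2 at 0.49 stands farthest to the right and H1f6 at -0.35 farthest to the left, and the 26 core histone genes lie between -0.26 and 0.20.

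Of the 26 core histone genes, 0 were called by limma, and by unadjusted p under 0.05 there were 0 higher and 1 lower. Their median change was -0.02, and 19 of the 26 differed between groups by less than 0.1 on the log2 scale. The 95% confidence intervals of single genes reached from -0.54 at the lowest to 0.49 at the highest, so changes of that size cannot be set aside for every gene. The median over the 26 genes was 0.05, -0.03 and -0.08 in the same-numbered pairs 1, 2 and 3. With the replicate number as a block 2 core genes were called lower, both of them H2A genes, and with H1f6 this made 3 of the 31 members called lower and 1 higher, beside 9.54% and 7.87% of all genes in that fit.

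The H2A genes had a median change of -0.07, with 1 of 5 above 0. H2ac8 (Hist1h2ae) had signals of 6.39, 6.51 and 6.53 in tamoxifen-treated cells, against 6.57, 6.73 and 6.88 in untreated cells. The groups did not overlap, but the nearest arrays were close, and the change of -0.25 ± 0.09 had an adjusted p of 0.119 (0.027 with the replicate block). H2ac8 was the dimmest of the H2A members, at the 33.0 percentile of signal, and whether its transcript was present was not tested. H2ac4 (Hist1h2ab) had signals of 11.25, 10.87 and 10.96 in tamoxifen-treated cells, against 11.46, 11.07 and 11.34 in untreated cells. In H2ac4 the groups overlapped, yet each tamoxifen array was lower than the untreated array of its number, by 0.21, 0.20 and 0.37. The change was -0.26 ± 0.12, with an adjusted p of 0.23 without the block and 0.0235 with it. H2aw (Hist3h2a), H2ac15 (Hist1h2ak) and the testis gene H2ac1 (Hist1h2aa) had changes of -0.07, -0.02 and 0.01, and the signs of H2ac15 and H2ac1 turned under other scalings.

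In the H2B class 3 of 11 genes had a positive and 8 a negative change, with a median of -0.05 and a range from -0.24 to 0.08. H2bc4 (Hist1h2bc) had signals of 10.26, 9.80 and 9.70 in tamoxifen-treated cells, against 10.18, 10.09 and 10.20 in untreated cells. Tamoxifen replicate 1 lay above all untreated arrays and the other tamoxifen arrays below them. The change was -0.24 ± 0.13 (adjusted p = 0.3), and without tamoxifen replicate 1 it was -0.41 with an adjusted p of 0.0187, so a single array decides whether H2bc4 is called. The transcribed pseudogene H2bu1-ps had a change of -0.17 ± 0.10 (adjusted p = 0.364). H2bc14 (Hist1h2bm), at the 99.2 percentile of signal, had a change of -0.12 ± 0.11, and the dim H2bc21 (Hist2h2be), at the 16.7 percentile, one of -0.07 ± 0.06. The testis gene H2bc1 (Hist1h2ba), at the 65.8 percentile of signal, had a change of -0.05 ± 0.10 (adjusted p = 0.811). The remaining H2B genes had changes between -0.09 and 0.08.

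H3 was read by few probe sets of single genes. H3c4 (Hist1h3d) had signals of 8.59, 8.65 and 8.84 in tamoxifen-treated cells, against 8.27, 8.57 and 8.63 in untreated cells, a change of 0.20 ± 0.11 (adjusted p = 0.28). Without untreated replicate 1, its lowest array, the change of H3c4 was 0.09. H3c15 (Hist2h3c2) had signals of 7.85, 7.72 and 7.87 in tamoxifen-treated cells, against 7.34, 7.59 and 7.91 in untreated cells. The untreated arrays of H3c15 spanned the tamoxifen arrays, and the change of 0.20 ± 0.13 (adjusted p = 0.369) was within their spread. It was 0.07 without untreated replicate 1 and 0.35 without untreated replicate 3. H3c7 (Hist1h3f), at the 11.8 percentile of signal, had a change of -0.03 ± 0.06. The H4 genes stayed closest to 0, with all 7 between -0.08 and 0.10 and a median of 0.01 that turned to -0.00 when arrays were centred on their medians. H4c4 (Hist1h4d), at the 99.96 percentile of signal, had signals of 14.02, 13.95 and 13.92 in tamoxifen-treated cells, against 14.10, 14.03 and 14.00 in untreated cells. Each tamoxifen array of H4c4 was lower than the untreated array of its number by a similar 0.08, 0.07 and 0.08, and the change of -0.08 ± 0.06 was not called (adjusted p = 0.49). H4c9 (Hist1h4i) and H4c8 (Hist1h4h) had changes of 0.10 ± 0.12 and 0.02 ± 0.09.

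The genes of each core class are nearly alike in sequence, and many probe sets cannot tell them apart. Of the 27 probe sets with several symbols, 24 listed 11 to 20 symbols: 7 for H2B, 10 for H3, 5 for H4 and 2 that mix H2A and H3 symbols. All 24 were among the brightest of the array, at or above the 98.6 percentile, with signals from 13.31 to 14.27 where the highest value of any array was 14.64. Their changes ran from -0.06 to 0.04, with 95% confidence intervals between -0.21 and 0.18, and 0 of 24 were called by limma or had an unadjusted p under 0.05, where 7.08% of the 23410 probe sets with a listed gene were called. Of them, 4 formed pairs with identical values on all arrays, so the 24 are not independent readings. These signals lay close to the top of the scale, and whether that limited their changes was not tested. Reads of single core histone genes may also hold signal of near-identical copies.

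**Figure D3:**
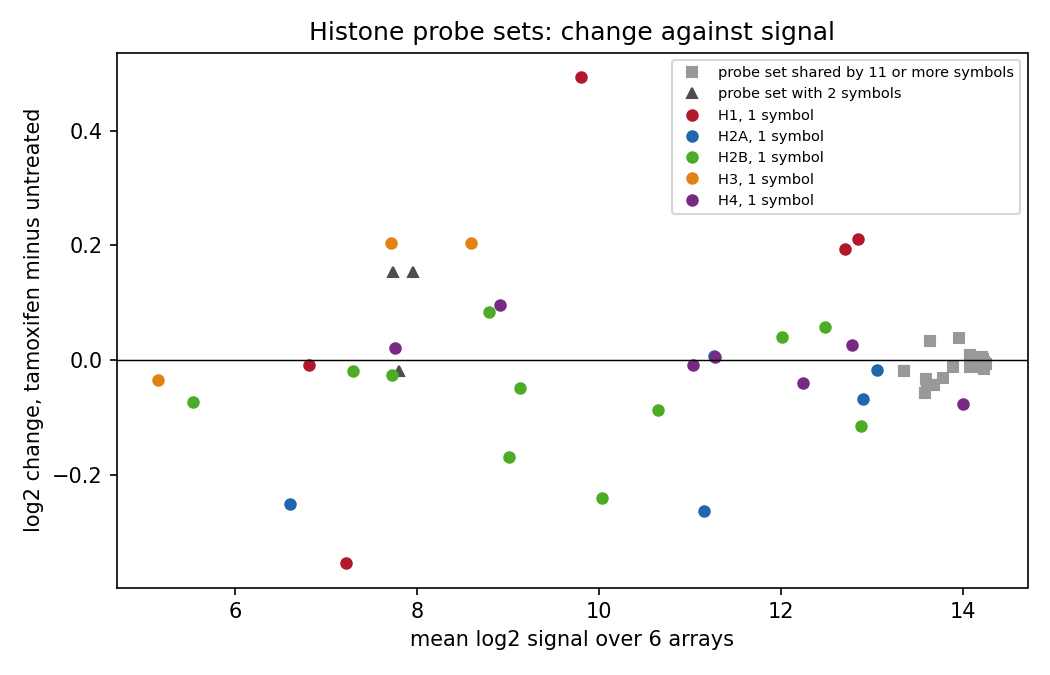
Change in log2 signal, tamoxifen minus untreated (vertical axis), against mean log2 signal over the 6 arrays (horizontal axis) for all 58 histone probe sets: circles are the 31 members coloured by class, grey squares the 24 shared probe sets and triangles the 3 with 2 symbols. The shared probe sets gather between -0.06 and 0.04 at signals above 13, and H1f2 lies apart at 0.49.

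By position, 23 members belong to the Hist1 cluster on chromosome 13, 4 to Hist2 on chromosome 3, 3 to Hist3 on chromosome 11 and 1 to Hist4 on chromosome 6. Median changes were -0.01, -0.02 and -0.07 in Hist1, Hist2 and Hist3, and the Hist4 gene H4f16 had a change of 0.01, a sign that turned under centring. All 3 members with a higher and both with a lower unadjusted p under 0.05 lay in Hist1, which holds 23 of the 31 members. Of all genes, 11.5% were higher and 13.1% lower at that p. H2A and H2B genes often start from a common stretch of DNA on opposite strands, and 2 such pairs were among the members. H2ac8 and H2bc8 (Hist1h2bg) start 180 bases apart, with changes of -0.25 ± 0.09 and 0.08 ± 0.09; the difference between them was not tested. The testis pair H2bc1 and H2ac1 starts 281 bases apart with changes of -0.05 ± 0.10 and 0.01 ± 0.06. The 250 bases before H2bc8, which take in the stretch shared with H2ac8, are shown with capitals at each match, on either strand, to the motifs named above and to the octamer ATTTGCAT, an element described in H2B promoters.
H2bc8 (chr13:23571150-23571399, plus strand): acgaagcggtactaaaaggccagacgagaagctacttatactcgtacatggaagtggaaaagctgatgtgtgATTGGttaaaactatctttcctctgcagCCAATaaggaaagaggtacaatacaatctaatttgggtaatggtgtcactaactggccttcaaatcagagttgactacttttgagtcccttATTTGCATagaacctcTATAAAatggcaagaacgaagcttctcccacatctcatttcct
Of the 26 members with a sequence, 21 held CCAAT, 15 held TATAAA, 8 held AAACACA and 9 held ATTTGCAT, which 1.62% of all windows hold. The octamer was found in 4 of 5 H2A and 5 of 8 H2B genes and in 0 of 5 H1, 0 of 2 H3 and 0 of 6 H4 genes. The windows of the partners in each divergent pair overlap. In both pairs the same octamer is counted once for the H2A and once for the H2B gene, so these are not 9 separate sites. The AAACACA of H2ac1 and H2bc1 is likewise the same site. TATAAA and CCAAT sites are also shared within both pairs, and the only TATAAA of H2ac8 is that of H2bc8 on the opposite strand.

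Genes that act on histone genes and their mRNAs gave 5 calls in all, with changes smaller than that of H1f2. They came from lists of 19, 28, 15, 25 and 31 measured genes, some shared between lists, where 7.78% of all genes were called. All 5 missed the threshold when p-values were adjusted over all probe sets, at 0.0553 for Nfyb, 0.0867 for Upf1, 0.0889 for Ccne2, 0.0976 for Lsm10 and 0.104 for Ubn2, where H1f2 had 0.0345. Of 19 measured regulators of histone transcription, 1 was higher and 1 lower. Nfyb, a subunit of NF-Y, the factor that binds CCAAT, had signals of 9.72, 9.59 and 9.62 in tamoxifen-treated cells, against 10.22, 10.11 and 9.99 in untreated cells. The groups did not overlap, and Nfyb fell by 0.46 on the log2 scale (SE 0.08, limma adjusted p = 0.0117), a call that was lost without tamoxifen replicate 2 (0.0581). The partner subunits Nfya and Nfyc, outside the naming rule, had changes of 0.12 ± 0.09 (adjusted p = 0.45) and 0.27 ± 0.11 (adjusted p = 0.178 unblocked and 0.0285 blocked). Ccne2, the cyclin E2 that activates Cdk2 at the start of S phase, had signals of 9.04, 9.27 and 9.23 in tamoxifen-treated cells, against 8.75, 8.72 and 8.89 in untreated cells. The groups did not overlap, and Ccne2 rose by 0.39 ± 0.08 (adjusted p = 0.0264) and passed in 2 of 6 fits when single arrays were dropped. Npat, the coactivator of histone genes that is phosphorylated by cyclin E and Cdk2, had a change of -0.15 ± 0.08 (adjusted p = 0.287), and Hinfp, which activates H4 genes, one of -0.12 ± 0.08 (adjusted p = 0.384); both are outside the naming rule.

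Of 28 measured genes of histone mRNA 3′ processing and turnover, 0 were higher and 2 lower. Under the replicate block 1 was higher and 5 lower, beside 7.87% and 9.54% of all genes in that fit. Lsm10, a protein of the U7 particle, had signals of 9.30, 9.20 and 9.26 in tamoxifen-treated cells, against 9.48, 9.61 and 9.49 in untreated cells. Lsm10 fell by 0.28 on the log2 scale (SE 0.07, adjusted p = 0.0385), and it passed in 0 of 6 fits when single arrays were dropped, nor did it pass after cyclic loess (0.0546). Upf1, a helicase needed for histone mRNA decay, fell by 0.29 (SE 0.06, adjusted p = 0.0306), and passed in 1 of 6 such fits. The median change of this list was -0.08. Slbp, the stem-loop binding protein, had a change of -0.07 ± 0.08 (adjusted p = 0.665), and Lsm11, the partner of Lsm10, one of -0.20 ± 0.09 (adjusted p = 0.237); both are outside the naming rule.

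Among 15 measured variant and replication-independent histones 0 were called by limma (4 at an unadjusted p under 0.05), with a median of 0.03. The oocyte linker histone H1f8 had a change of 0.30 ± 0.08 (adjusted p = 0.0551 unblocked and 0.0143 blocked). H1f8 lay at the 21.1 percentile of signal, and whether its transcript was present was not tested. Macroh2a2 had a change of 0.19 ± 0.07 (adjusted p = 0.11). Of 25 measured chaperones 1 was called, Ubn2, a subunit of the complex that deposits H3.3, which rose by 0.29 ± 0.07 (adjusted p = 0.041) and passed in 0 of 6 fits when single arrays were dropped. With the block 2 chaperones were higher and 1 lower. Of 31 measured S phase genes Ccne2 was called, and with the replicate block 1 was higher and 1 lower. The gene added by the block was Uhrf1, a factor that guides DNA methylation at replication forks and is outside the naming rule, with a change of -0.27 ± 0.08 (adjusted p = 0.0676 unblocked and 0.0136 blocked). It was -0.27, -0.27 and -0.28 in the same-numbered pairs. The median of the S phase list was -0.05, with changes from -0.27 to 0.39. These lists have medians from -0.08 to 0.03, beside 0.01 for all genes. Calls were made in 0 to 2 members each, beside 7.78% of all genes called in either direction. With the block 7.87% of all genes were higher and 9.54% lower, and at an unadjusted p under 0.05 without it 11.5% and 13.1%.

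**Figure D4:**
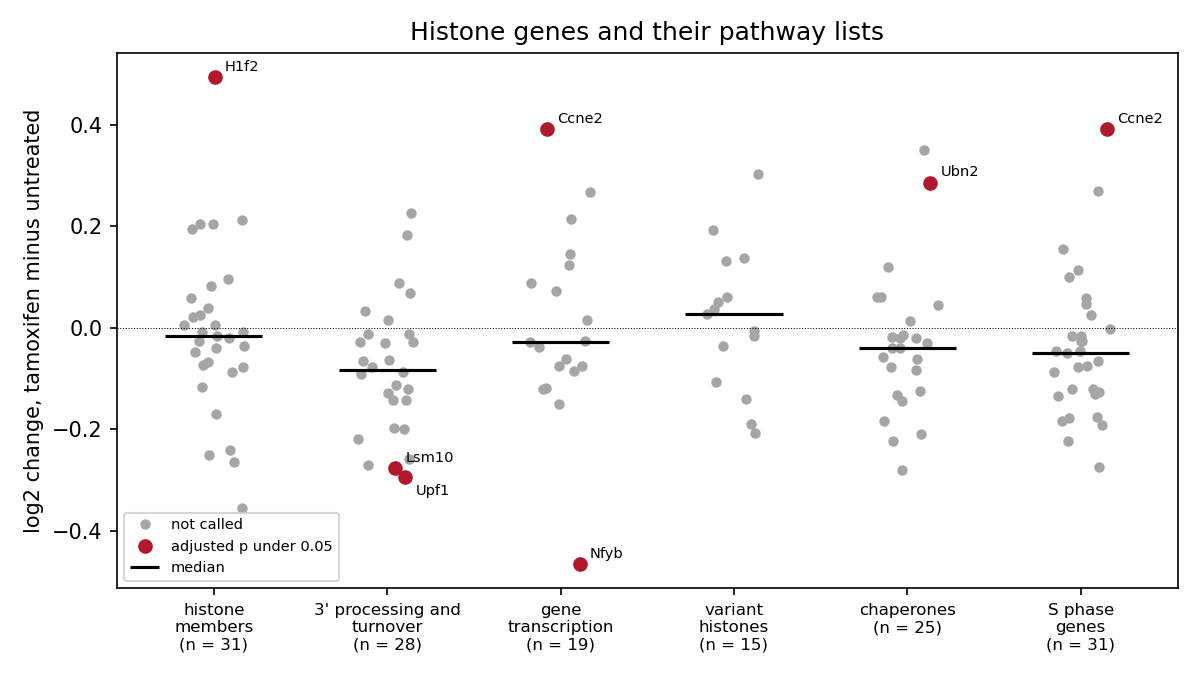
Change in log2 signal, tamoxifen minus untreated (vertical axis), of the 31 histone genes and of each pathway list (columns, number measured in parentheses), with called genes in red and a bar at the median; horizontal placement within a column is arbitrary. Each column has at most 2 called genes, and medians lie between -0.08 and 0.03.

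Markers were used to check the label and the other cells a culture could hold. All 9 embryonic stem cell markers lay at or above the 75.8 percentile of signal, and 0 were called by limma (3 at an unadjusted p under 0.05). These 3 were all lower, Utf1 by 0.26, Zfp42 by 0.19 and Tdgf1, outside the naming rule, by 0.24. Of all genes 13.1% were lower at that p. The mean level of the 9 ran from 12.49 to 12.57 in tamoxifen arrays and from 12.58 to 12.67 in untreated arrays. These ranges do not overlap, and the part of the markers in the histone values was not tested. With the replicate block 2 of the 9 were called lower, beside 9.54% of all genes. Of 8 markers of fibroblast feeders, 6 of primitive endoderm, 6 of trophoblast and 6 of spermatogenic cells, 0 were called by limma, with 1, 2, 2 and 2 at an unadjusted p under 0.05. Their mean levels overlapped between the groups in all 4 lists. With the block 1 feeder marker was lower, 1 endoderm marker higher and 1 lower, and 1 trophoblast marker higher, and 0 spermatogenic markers were called. In that fit 7.87% of all genes were higher and 9.54% lower. The spermatogenic list, which bears on the testis histones H1f6, H2ac1 and H2bc1, had a mean level from 6.27 to 6.34 in tamoxifen arrays and from 6.20 to 6.30 in untreated arrays. Its members lay between the 9.15 and 46.9 percentiles of signal, H1f6 at the 42.3, H2bc1 at the 65.8 and H2ac1 at the 91.7 percentile. Whether the probe sets of H2bc1 and H2ac1 also read other histone genes was not tested.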

How the data were processed

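The authors deposited log2 intensities. Per the submitters' processing notes these come from Expression Console 1.2 with RMA, whose quantile normalisation hides a shift common to most transcripts. Their range, 3.18 to 14.6, fits a log2 scale. No build for the array's annotation is given in the sources used here, so the only coordinates are those of RefSeq promoters. Of 35556 probe sets, 21789 had 1 gene symbol, 1621 several and 12146 none listed; the brightest of a gene's probe sets was kept, leaving 19938 genes. The table had 0 columns of other samples.

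The comparison used limma 3.58.1 (R 4.3.3; two-sided moderated test, all genes kept), with calls at a Benjamini-Hochberg adjusted p under 0.05; the code was tested on simulated data. Older symbols in the gene lists were matched through the RefSeq table. Members and lists were chosen with earlier results of these data known. Named genes are Dicer1; per histone class up to 4 called members each way, failing that the 2 of lowest p, the brightest, the dimmest and those against the class median at an unadjusted p under 0.05; 3 testis genes; and for each list up to 2 called genes each way, failing that the 2 of lowest p. Other genes were named after their values were seen.

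Deviations from group means of same-numbered arrays correlated at 0.356, 0.345 and 0.389, so the numbers were taken to pair the samples, and a replicate block was fitted as an alternative. The others were cyclic loess, median centring, a second quantile normalisation, averaging a gene's probe sets, a filter removing the dimmest 40% of genes, a trended robust prior, array weights, other sets of features, stricter thresholds and leaving out each array. The number of arrays limits the precision.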

Additional observations from a re-analysis of the deposited data

How the results depend on the processing

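The rise of H1f2 was past the threshold in 17 of 18 alternatives, with changes from 0.45 to 0.54 and adjusted p-values from 0.00179 to 0.0345; the exception required a change of at least 0.5, just above its 0.49, which left 0 histone genes called higher. The count of histone genes called lower, 0 as reported, was 3 with the replicate block, 1 after renewed quantile normalisation, 1 after cyclic loess, 1 with array weights, and 0 to 1 when 1 array was left out. The gene gained was H1f6 in each case but 2: the block added H2ac8 and H2ac4, and leaving out tamoxifen replicate 1 added H2bc4 alone. Over all genes, 1552 calls as reported became 3472 with the replicate block, 2511 with array weights, 336 over all probe sets, 276 at an adjusted p under 0.01, 442 with a change of at least 0.5, and 355 to 1580 without 1 array (516 and 908 without untreated replicates 2 and 3, 355 and 539 without tamoxifen replicates 2 and 3). Over probe sets with a listed gene there were 1657. The stricter thresholds lower the count by construction, and for the other shifts the cause was not tested. Reversed signs were those of changes near 0. H2ac1 was -0.000467 after centring and -0.00817 with array weights, H2ac15 was 0.00745 after renewed quantile normalisation and 0.000112 after cyclic loess, and H2bc1 was 0.00900 with array weights. H4c3, outside the naming rule, was 0.0198 and 0.0312 after renewed quantile normalisation and cyclic loess, and H4f16 was -0.00123 after centring. When 1 array was left out, changes of named members that crossed 0 ran from -0.0847 to 0.0616 in H1f3, -0.0220 to 0.0287 in H2ac1, -0.0513 to 0.009 in H2ac15, -0.130 to 0.0616 in H2bc1, -0.0622 to 0.0991 in H4c8 and -0.0444 to 0.168 in H4c9. The changes of H2bc8, H2bu2, H2bc22, H4c14, H4c3 and H4f16 also crossed 0, within -0.0642 to 0.139. The replicate block changed the call of no other histone gene. Leaving out the dimmest genes removed 4 members, which gave no value there.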
